A study of Mus musculus with 12 samples.

Results

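The genes described here encode the proteins of the mitochondrial ribosome. They were taken from the raw count table of the mouse ventral hippocampus as all protein-coding genes whose symbol begins with Mrpl or Mrps and a number. The rule found 78 of the 54532 genes in the table, 49 with an Mrpl symbol (large subunit) and 29 with an Mrps symbol (small subunit). Another 5 genes whose symbols match the same pattern are processed pseudogenes with 0 to 40 counts per library, and they were left out. Of the 78 members, 77 passed the filter on low counts. The remaining one, Mrpl53, had 0 counts in all 12 libraries. Its exons lie on chromosome 6 (83109040 to 83109939, mm10), and 88.0% of its exonic bases also belong to Gm42688 on the same strand, so a count of 0 for it does not show that the gene is silent.

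The mitochondrial ribosome sits in the mitochondrial matrix and translates the mRNAs that the mitochondrial genome encodes, all of which are for core subunits of the respiratory chain and of ATP synthase. Its rRNAs come from the mitochondrial genome, whereas its proteins are encoded in the nucleus, made in the cytosol and imported. The small subunit decodes the mRNA, and the large subunit joins amino acids and feeds the new chain to the inner membrane. Many of its proteins have a bacterial counterpart, and the others are particular to mitochondria. Neurons depend on oxidative phosphorylation for firing and synaptic transmission, and inherited defects in several of these proteins cause disorders of brain, heart and liver.

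The study sequenced RNA from the ventral hippocampus of mice labelled as wild type, in 4 groups of 3 libraries. Control mice had no treatment. CSDS mice were exposed to CSDS and, per the labels, had no virus. SSDS-GFP mice received AAV8-eGFP and were exposed to SSDS, and SSDS-shACOT12 mice had ACOT12, a thioesterase that splits acetyl-CoA, knocked down in the liver and were exposed to SSDS. The labels do not spell out these abbreviations, which in this field mean chronic (CSDS) and subthreshold (SSDS) social defeat stress. The column names of both virus groups carry TBG, which in work with AAV usually names a liver-specific promoter, and the tissue sequenced is not the one in which ACOT12 was knocked down. Virus and SSDS differ from Control together and cannot be told apart in comparisons with Control. Age is not in the labels. The labels do not say that libraries of a group come from separate animals, and the p-values measure only the spread between these libraries.

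Library totals ran from 14656714 to 17694570 counts. Neuronal markers (Rbfox3, Snap25, Syt1 and Map2) summed to 3789 to 5567 CPM (counts scaled to library size), and the 5 hepatocyte markers to at most 1.92 CPM. The 5 markers of hippocampal excitatory neurons summed to 5554 to 6365 CPM in Control, 4671 to 5375 with CSDS, 3963 to 5383 with SSDS-GFP and 4190 to 6254 with SSDS-shACOT12, so that Control lay above CSDS and SSDS-GFP. The 5 red cell markers summed to 331.9 to 386.3 CPM in CSDS, against 67.13 to 205 in the other groups. Choroid plexus markers reached 549.8 CPM in 1 Control library and at most 39.78 in the libraries of the other groups. Genes encoded in the mitochondrial genome took 3.23% and 4.31% of the counts of SSDS-shACOT12 1 and 3 and 6.31% to 9.24% of those of the other libraries. The part of these differences in the results below was not tested. In tissue RNA, fewer cells of a type and less RNA per cell cannot be told apart.

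The members took 0.249%, 0.265% and 0.249% of all counts in the Control libraries. The share was 0.288%, 0.284% and 0.274% with CSDS, 0.314%, 0.273% and 0.330% with SSDS-GFP, and 0.317%, 0.287% and 0.343% with SSDS-shACOT12. Every library of the other groups lay above every Control library. Library 2 was the lowest of SSDS-GFP and of SSDS-shACOT12. The split between the subunits did not follow this pattern: large subunit genes took 65.7% ± 0.63 of the members' counts in Control, 65.4% ± 0.47 with CSDS, 65.6% ± 0.61 with SSDS-GFP and 65.6% ± 0.40 with SSDS-shACOT12 (SD, n = 3 each).

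Within the complex, mRNA levels per deposited gene length spanned more than an order of magnitude. On the scale of the deposited FPKM, the highest large subunit level in Control was that of Mrpl41, at 66.1, 89.1 and 66.1 (73.8 ± 13.3, SD, n = 3). Mrpl41 encodes a protein without a bacterial counterpart. Next came Mrpl27, at 43.1 ± 4.57, whose bacterial counterpart reaches toward the peptidyl transferase centre. The lowest tested were Mrpl33 at 3.16 ± 0.38 and Mrpl15 at 3.43 ± 0.15, whose libraries overlapped. In the small subunit, Mrps21 led at 49.1 ± 3.75, followed by Mrps33 at 33.3 ± 2.66, and Mrps35 (2.29 ± 0.16) and Mrps30 (2.45 ± 0.33) were lowest and also overlapped. The highest level was 23.3 times the lowest among large subunit genes and 21.5 times among small subunit genes. These spans rest on the deposited length, 888 bases for Mrpl41, 7326 for Mrpl33, 739 for Mrps21 and 8631 for Mrps35. Not scaled for length, their mean Control levels were 66.3, 23.4, 36.7 and 20.0 CPM in the same order. For 73 of the 78 members the length equalled all annotated exonic bases, and its part in the spans was not tested.

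Median FPKM over the large subunit was 14.1 in Control, 16.4 with CSDS, 18.9 with SSDS-GFP and 18.7 with SSDS-shACOT12. Over the small subunit it was 9.51, 11.0, 13.0 and 13.8 in the same order. The ratio of the large to the small subunit median was 1.48 ± 0.11 in Control, 1.48 ± 0.15 with CSDS, 1.51 ± 0.04 with SSDS-GFP and 1.42 ± 0.09 with SSDS-shACOT12 (SD, n = 3 each), and these means lay within the spread of the libraries.

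**Figure D1:**
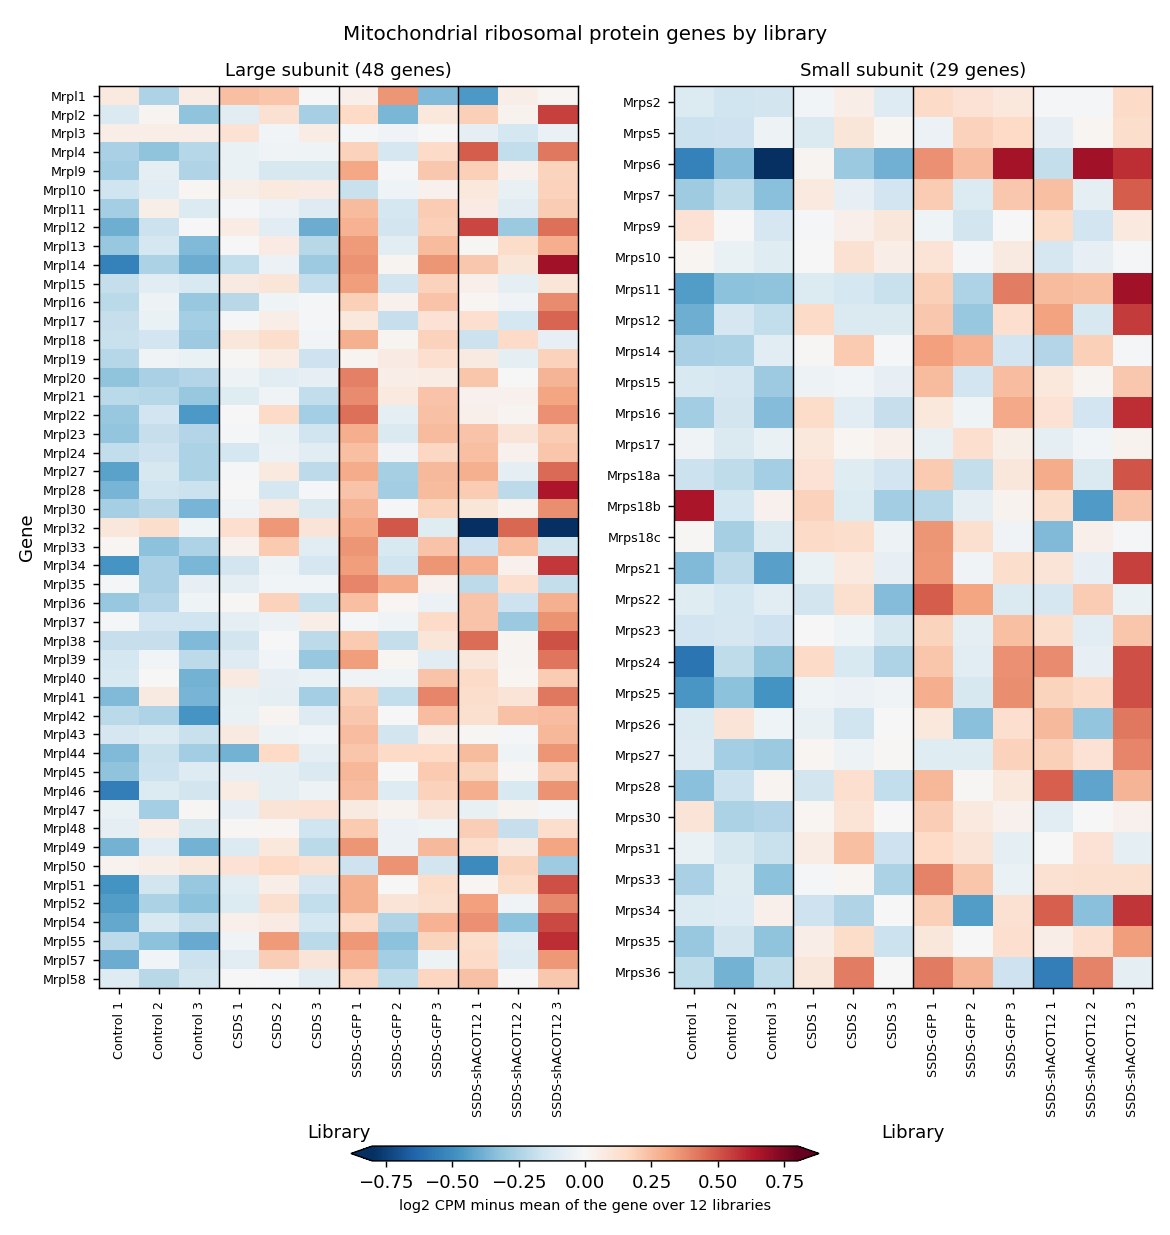
Heat map of the 77 tested members (rows; 48 large subunit genes left, 29 small subunit genes right) in the 12 libraries (columns), coloured by log2 CPM minus the gene's mean over all libraries. Most rows are below their mean in the 3 Control libraries, while a few rows, among them Mrpl32, Mrpl50 and Mrpl3, show a different order.

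To compare the subunits over the groups, log2 CPM of each tested member was centred on its mean over the 12 libraries and averaged over the members of each subunit. The large subunit mean was -0.23, -0.13 and -0.21 in Control, -0.03, 0.04 and -0.11 with CSDS, 0.22, -0.04 and 0.14 with SSDS-GFP, and 0.10, -0.01 and 0.26 with SSDS-shACOT12. The small subunit mean was -0.17, -0.18 and -0.21 in Control, 0.01, 0.01 and -0.10 with CSDS, 0.18, -0.01 and 0.13 with SSDS-GFP, and 0.07, -0.00 and 0.27 with SSDS-shACOT12. In both subunits the 3 Control libraries were the 3 lowest of the 12, and the libraries of the other groups overlapped with each other. The same held for short genes in general. Over all tested genes in the shortest of 8 bins by length, centred log2 CPM was -0.13, -0.07 and -0.16 in Control. It ran from -0.04 (CSDS 3) to 0.21 (SSDS-shACOT12 3) in the other libraries. The difference between the subunits within a library ran from -0.06 to 0.04, and its group means were all within 0.01 of 0.

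**Figure D2:**
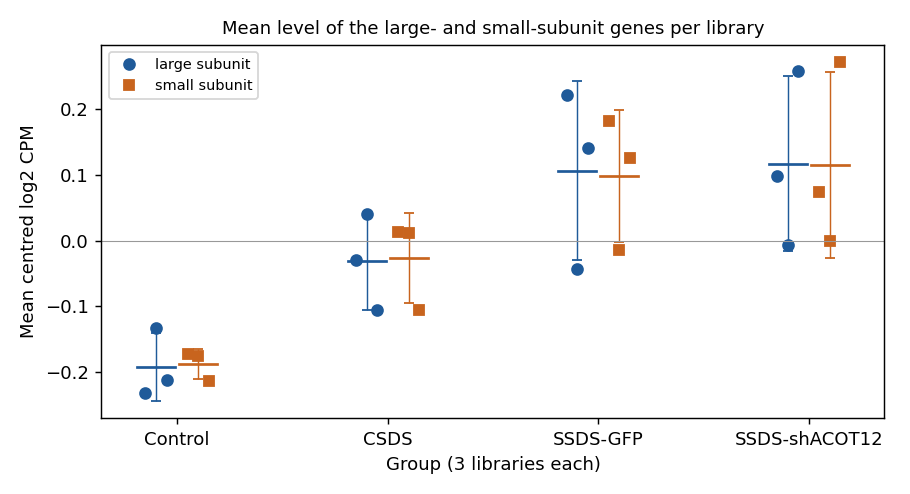
Mean centred log2 CPM of the large and the small subunit in each library (points), with bars for the mean ± SD of the 3 libraries of a group. The large subunit group means are -0.19, -0.03, 0.11 and 0.12 and the small subunit group means -0.19, -0.03, 0.10 and 0.12 for Control, CSDS, SSDS-GFP and SSDS-shACOT12, and the subunits follow each other library by library.

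The lowest of the 4 group means was that of Control for 66 of 77 members (43 of 48 large, 23 of 29 small), which held for 31.0% of all 16915 genes tested. The highest was that of SSDS-shACOT12 for 41 (53.2%, against 32.1% of all genes), SSDS-GFP for 29 (37.7%, against 18.8%), CSDS for 5 (6.49%, against 17.6%) and Control for 2 (2.60%, against 31.4%). By single library, 36 members were highest in SSDS-shACOT12 3, where 20.1% of all genes were highest and 17.4% lowest, and 21 in SSDS-GFP 1, where 6.35% of all genes were highest. Across the 12 libraries the median member correlated at 0.83 with the mean of the other members, as a description of libraries that share depth and composition, and 5 members (Mrpl1, Mrpl3, Mrpl32, Mrpl50 and Mrps18b) correlated below 0.

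CSDS against Control asks what CSDS changed, since neither group had virus. None of the 77 members passed the threshold, an adjusted p under 0.05 over all genes in edgeR's quasi-likelihood test, where the share of all genes called was 0%. DESeq2 called none either, among 0.0355% of all genes, nor did limma with library quality weights, among 0.118%. At an unadjusted p under 0.05, 3 members were higher (Mrpl18, Mrpl42 and Mrps25) and none was lower, against 2.86% of all genes higher and 3.01% lower. The log2 fold change was above 0 for 46 of 48 large and 25 of 29 small subunit genes, against 50.3% of all genes. Its median was 0.16 for the large and 0.17 for the small subunit, against 0.00 over all genes. All 3 CSDS libraries were above all 3 Control libraries for 18 large and 13 small subunit genes, together 31 of 77, where 10.2% of all genes did so. No member had all CSDS libraries below Control, against 10.1% of all genes.

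Named by the smallest p, the large subunit genes were Mrpl18 (the counterpart of bacterial L18, in the central protuberance; log2 fold change 0.28 ± 0.12, SE), Mrpl42 (0.26 ± 0.12), Mrpl30 (0.26 ± 0.13) and Mrpl52 (0.29 ± 0.14). The small subunit genes were Mrps25 (0.38 ± 0.15), Mrps35 (0.27 ± 0.13), Mrps36 (0.44 ± 0.22) and Mrps21 (0.32 ± 0.16). Their adjusted p-values ran from 0.849 to 0.867. Mrps36 has since been described as a component of the oxoglutarate dehydrogenase complex in place of the ribosome. At the other end were Mrps18b (-0.28 ± 0.25) and Mrps34 (-0.08 ± 0.22).

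SSDS-GFP against Control, which uses the same Control libraries as the comparison with CSDS, asks what virus and SSDS changed together. Again no member passed the threshold, at which 0.0946% of all genes were called (0.0769% higher). The smallest adjusted p of a member was 0.107 (Mrps6). An unadjusted p under 0.05 was reached by 33 members, all higher (21 large, 12 small), against 8.92% of all genes higher and 6.23% lower. Values above 0 were found for 46 of 48 large and 26 of 29 small subunit genes, against 50.8% of all genes, with medians of 0.33 and 0.28, against 0.01 over all genes. The SSDS-GFP libraries lay wholly above Control for 36 members (23 large, 13 small), against 12.5% of all genes, and wholly below it for Mrpl3, against 11.4% of all genes.

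The call depended on the test. DESeq2 called 9 members higher, Mrpl14, Mrpl20, Mrpl21, Mrpl30, Mrpl42, Mrpl49, Mrpl52, Mrps6 and Mrps25, where it called 3.99% of all genes. With no filter on low counts, edgeR called Mrpl14, Mrps6 and Mrps25 among 1.85% of all genes. Limma with library quality weights, which gives less weight to libraries that stand apart, called 49 members, among 17.2% of all genes. Without SSDS-shACOT12 1 the edgeR test called Mrps6 (0.202% of all genes), and likewise without SSDS-shACOT12 2 (0.642%).

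**Figure D3:**
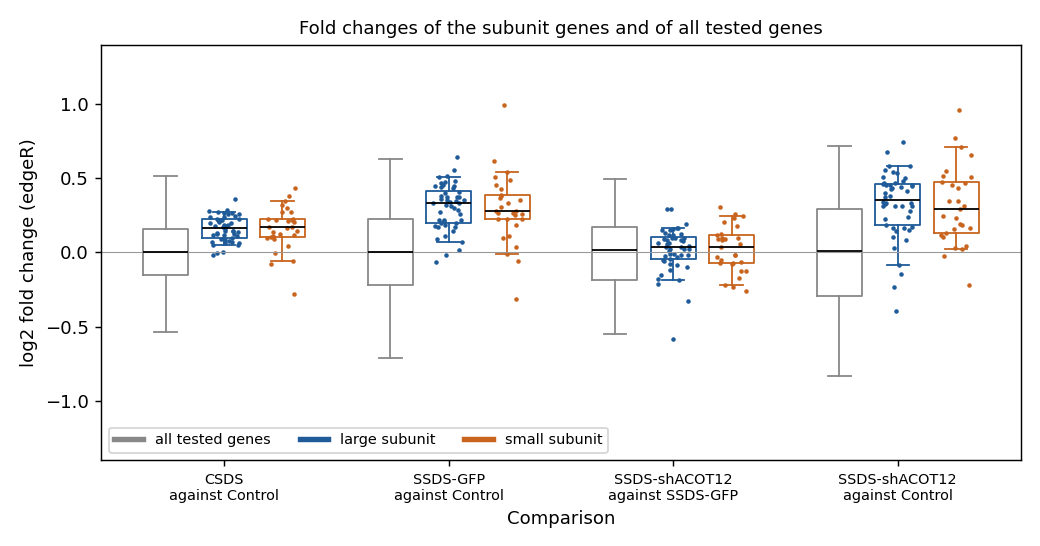
Log2 fold changes of the members (points) in each comparison by subunit, beside all 16915 tested genes, with boxes for the quartiles and whiskers from the 5th to the 95th percentile. In the comparisons with Control most members lie above the median of all genes, and in SSDS-shACOT12 against SSDS-GFP both subunits centre near 0, at a median of 0.04.

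The hepatic knockdown is addressed by SSDS-shACOT12 against SSDS-GFP, in which both groups had virus and SSDS. No member and no other gene passed the threshold (0%), and 1 member, Mrpl35, was lower at an unadjusted p under 0.05, against 1.84% of all genes higher and 2.68% lower. DESeq2 called no member and no other gene either. Values above 0 were found for 29 of 48 large and 15 of 29 small subunit genes, against 52% of all genes, and both medians were 0.04. The sign of these medians was not stable. Without SSDS-GFP 2 they were -0.04 (large) and -0.03 (small), and without SSDS-shACOT12 3 they were -0.05 and -0.07. The small subunit median was also below 0 on log2 of FPKM plus 0.1 (-0.015) or plus 1 (-0.013) and without members that share exons (-0.020), and so was the large subunit median with library quality weights (-0.010). No member had all SSDS-shACOT12 libraries above SSDS-GFP, against 2.23% of all genes. Mrpl3 and Mrps30 had all of them below, against 2.58% of all genes.

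SSDS-shACOT12 against Control was added after the results were seen, and it shares its libraries with the other comparisons. No member passed the threshold, at which 0.0828% of all genes were called, but the smallest adjusted p-values lay just above it, at 0.0531 for Mrps25 and Mrps11. An unadjusted p under 0.05 was reached by 42 members, all higher, against 13.6% of all genes higher and 10.7% lower. Of the log2 fold changes, those above 0 belonged to 44 of 48 large and 27 of 29 small subunit genes, against 51.3% of all genes, with medians of 0.36 and 0.29. The libraries lay wholly above Control for 28 large and 14 small subunit genes, against 14% of all genes, and wholly below for Mrpl3, against 11.6%. DESeq2 called 20 members among 10% of all genes, and limma with library quality weights 42 among 25%. Of the latter, Mrpl32 (-0.90) and Mrpl50 (-0.42) were lower and the others higher. In edgeR, 10 were called with no filter (5.31% of all genes), 6 with at least 50 counts in 3 libraries (2.65%) and 7 with each library's GC trend removed (2.72%). Leaving out SSDS-shACOT12 2 took the edgeR count from 0 to 41 (39 higher and 2 lower), with 24.5% of all genes called. The count thus depended on whether that library was kept, as well as on the test and the filter. Without SSDS-GFP 2 the count was 8 (2.98% of all genes), without SSDS-GFP 3 it was 5 (2.59%), and without SSDS-shACOT12 1 it was 4 (1.74%).

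Over all 4 groups together, the edgeR test of any difference called no member, with 0.0887% of all genes called. The smallest adjusted p of a member was 0.179. DESeq2 called 11 members among 5.04% of all genes, limma with library quality weights 52 among 30.8%, and edgeR with no filter 5 among 4.45%. Without SSDS-shACOT12 2 edgeR called 19 (12.6% of all genes), and without SSDS-shACOT12 1 it called 1 (0.243%).

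The largest log2 fold change against Control in both virus groups was that of a small subunit gene, Mrps6. Mrps6 (chromosome 16, 92058270 to 92112227, + strand, mm10) encodes the counterpart of bacterial S6, which pairs with S18 on the platform of the small subunit. Its level was 15.4, 17.6 and 12.8 CPM in Control, 22.7, 18.2 and 17.2 with CSDS, 28.9, 26.6 and 35.5 with SSDS-GFP, and 19.7, 35.7 and 33.8 with SSDS-shACOT12. All SSDS-GFP and SSDS-shACOT12 libraries lay above Control, while CSDS overlapped with it. The log2 fold change against Control was 0.99 ± 0.22 with SSDS-GFP (SE, adjusted p = 0.107) and 0.96 ± 0.22 with SSDS-shACOT12 (adjusted p = 0.0532). Of its exonic bases 19.9% also belong to other genes, among them 159 bases of Slc5a3, a myo-inositol transporter gene on the same strand. Slc5a3 had 322, 326 and 379 counts in Control and 649, 902 and 592 with SSDS-GFP, but 309, 1202 and 294 with SSDS-shACOT12, where libraries 1 and 3 were as low as Control. Its part in the Mrps6 counts was not tested.

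Mrps25 (chromosome 6, 92169525 to 92184033, - strand) encodes a protein of the small subunit without a bacterial counterpart. It was measured at 28.5, 31.4 and 28.3 CPM in Control, 38.4, 38.1 and 38.6 with CSDS, 48.1, 36.0 and 51.0 with SSDS-GFP, and 44.5, 43.7 and 56.3 with SSDS-shACOT12. Every library of the other groups lay above Control. Against Control, the log2 fold change was 0.38 ± 0.15 with CSDS (adjusted p = 0.849), 0.61 ± 0.15 with SSDS-GFP (adjusted p = 0.126) and 0.71 ± 0.15 with SSDS-shACOT12. Of its exonic bases 69.8% lie opposite Nr2c2, a nuclear receptor gene, and without the strand setting of the counting the 2 genes' reads cannot be told apart. Nr2c2 itself had 537, 575 and 738 counts in Control, 379, 323 and 448 with CSDS and 247, 357 and 318 with SSDS-GFP, and 466, 309 and 256 with SSDS-shACOT12. Its counts lay below Control in each other group, but its log2 fold change of SSDS-shACOT12 against SSDS-GFP was 0.11 ± 0.21.

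Mrps11 (chromosome 7, 78783119 to 78792989, + strand), the counterpart of bacterial S11 along the mRNA path, was at 18.9, 20.5 and 20.6 CPM in Control and 23.9, 23.4 and 22.8 with CSDS. It was at 29.5, 21.7 and 34.3 CPM in SSDS-GFP and 30.7, 30.5 and 41.1 with SSDS-shACOT12, so that each other group lay wholly above Control. The log2 fold change of SSDS-shACOT12 against Control was 0.77 ± 0.17. Mrps11 and Mrpl46 lie head to head and share 173 bases on opposite strands, 7.97% of the exonic bases of Mrps11.

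Among large subunit genes, Mrpl14 (chromosome 17, 45686322 to 45698495, + strand), the counterpart of bacterial L14 at the interface of the subunits, had the largest log2 fold change of SSDS-GFP against Control, at 0.65 ± 0.17 (SE, adjusted p = 0.13). It was measured at 15.8, 19.3 and 17.4 CPM in Control, 20.0, 22.2 and 18.8 with CSDS, 29.5, 23.3 and 29.3 with SSDS-GFP, and 26.7, 24.6 and 36.7 with SSDS-shACOT12. Both virus groups lay above Control, and 1 CSDS library lay within its range. Mrpl42 (chromosome 10, 95480805 to 95501940, - strand), which has no bacterial counterpart, had 42.5, 41.7 and 35.7 CPM in Control and 47.5, 50.2 and 45.9 with CSDS. It reached 57.3, 49.4 and 58.7 CPM in SSDS-GFP and 53.9, 58.0 and 58.5 with SSDS-shACOT12, with no library of the 3 groups inside the Control range. Its log2 fold changes against Control were 0.26 ± 0.12, 0.46 ± 0.12 (adjusted p = 0.13) and 0.51 ± 0.12 (adjusted p = 0.0549).

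Mrpl32 (chromosome 13, 14608184 to 14613165, - strand) encodes a protein that the m-AAA protease of the inner membrane matures before it joins the large subunit. It was at 20.6, 21.4 and 18.9 CPM in Control, 21.2, 24.7 and 20.8 with CSDS, 24.0, 27.3 and 18.1 with SSDS-GFP, and 9.84, 26.7 and 9.85 with SSDS-shACOT12. SSDS-shACOT12 1 and 3 were the lowest of all 12 libraries, and SSDS-shACOT12 2 was the second highest. The log2 fold change of SSDS-shACOT12 against SSDS-GFP was -0.58 ± 0.31 (SE, adjusted p = 0.803), and without SSDS-shACOT12 2 it was called, at an adjusted p of 0.00679 among 5.7% of all genes. Limma with library quality weights also called it lower, as the only member, among 0.467% of all genes. Its exonic GC content, 40.2%, was the lowest of all members.

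Mrpl3, the counterpart of bacterial L3 near the peptidyl transferase centre, had one of the narrowest ranges. Its level was 78.9, 79.1 and 78.9 CPM in Control, 82.7, 74.9 and 79.3 with CSDS, 75.4, 74.8 and 76.5 with SSDS-GFP, and 72.1, 68.9 and 73.4 with SSDS-shACOT12. Both virus groups lay below Control, by a log2 fold change of -0.06 ± 0.10 and -0.14 ± 0.10 (adjusted p = 0.802 and 0.381). Mrpl50 had 46.2, 46.9 and 47.9 CPM in Control but ranged from 31.8 to 51.1 with SSDS-shACOT12 and from 40.4 to 58.0 with SSDS-GFP, with library 2 the highest of each. Over all tested members, the highest library exceeded the lowest by 0.25 (log2) for Mrps17 and by 1.47 for Mrps6, with a median of 0.73, against 0.96 over all tested genes. The medians were not matched for level, and the filter let in genes from a minimum count of 10.

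**Figure D4:**
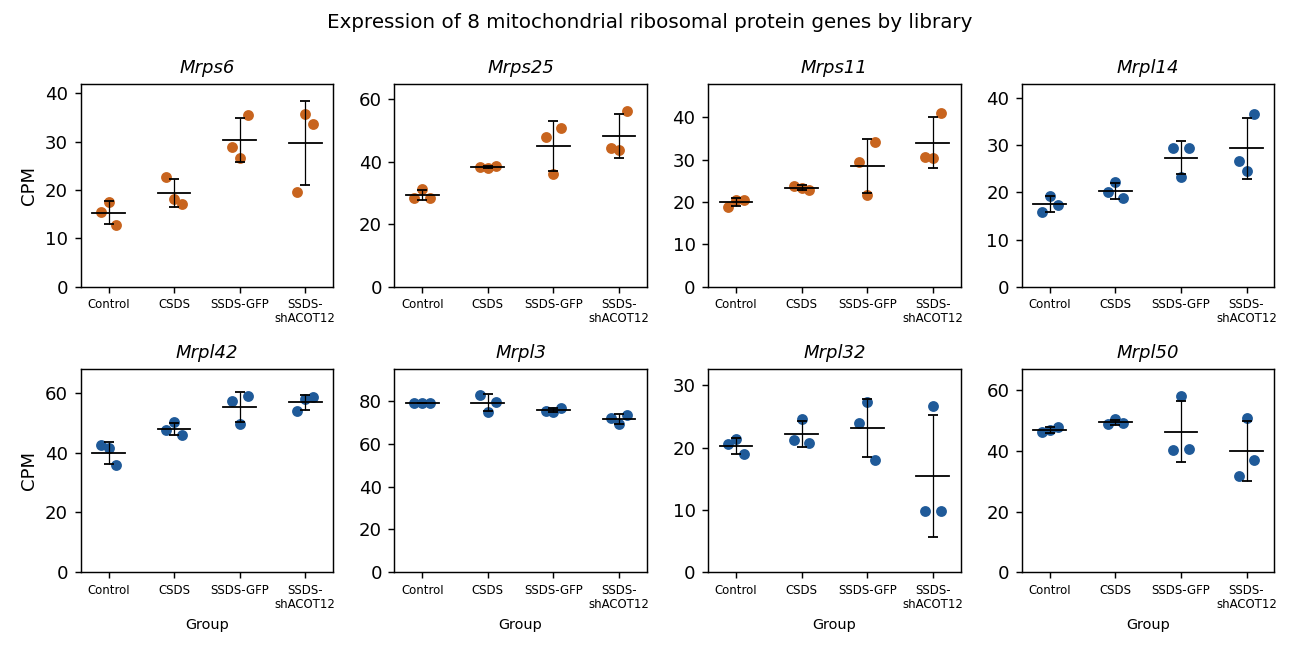
CPM in each library (points) of 4 members with wide differences from Control (Mrps6, Mrps25, Mrps11 and Mrpl14), of Mrpl42, and of Mrpl3, Mrpl32 and Mrpl50, with bars for the mean ± SD of the 3 libraries of a group. Mrps25 in Control stays at or below 31.4 CPM, below every other library, whereas Mrpl32 has 1 SSDS-shACOT12 library at 26.7 CPM and the others under 10 CPM.

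The members were next read by their place in the ribosome. In the stalk (Mrpl10, Mrpl11 and Mrpl12), which recruits translation factors, all 3 had a log2 fold change above 0 with CSDS, SSDS-GFP and SSDS-shACOT12 against Control, with medians of 0.05, 0.22 and 0.17. Mrpl12, which has also been reported to bind the mitochondrial RNA polymerase, ran from 28.5 to 37.3 CPM in Control and from 30.5 to 54.2 with SSDS-shACOT12, so the groups overlapped. In the central protuberance (Mrpl18, Mrpl27, Mrpl38, Mrpl40, Mrpl46 and Mrpl48), all 6 were above 0 in each comparison with Control, with a median of 0.18 with CSDS and 0.33 with SSDS-GFP. Around the exit tunnel and the membrane anchor (Mrpl17, Mrpl22, Mrpl23, Mrpl24, Mrpl45 and Mrpl47), all 6 were above 0 as well, with medians of 0.16 and 0.35. Along the decoding site and mRNA path (Mrps2, Mrps5, Mrps7, Mrps9, Mrps11 and Mrps12), 6 of 6 were above 0 with CSDS and 5 of 6 with SSDS-GFP, with medians of 0.17 and 0.26. Of these 6, Mrps9 was the one below 0 with SSDS-GFP, at -0.05 ± 0.12.

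The 3 paralogues of bacterial S18 differed in level and order. Mrps18b was at 10.1, 5.84 and 6.60 CPM in Control and between 4.71 and 7.56 in the other groups, and its log2 fold changes of -0.28 (CSDS) and -0.31 (SSDS-GFP) were the lowest of all members. Mrps18a, which lies in the large subunit in structures of the ribosome despite its symbol, was at 36.6, 35.8 and 34.1 CPM in Control and 44.6, 38.5 and 37.1 with CSDS. Counting Mrps18a and Mrps30 with the large subunit, as structures place them, and leaving out Mrps36 gave medians of 0.17 and 0.16 with CSDS and 0.33 and 0.28 with SSDS-GFP.

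Members with a bacterial counterpart were also set beside those without. In SSDS-GFP against Control the median was 0.33 for the 29 large subunit genes with a counterpart and 0.32 for the 19 without. It was 0.29 for the 16 small subunit genes listed with one and 0.26 for the other 13. Of the S18 paralogues, only Mrps18c was listed with a counterpart, so Mrps18a and Mrps18b were among the 13. In CSDS against Control the medians of the same sets were 0.17, 0.15, 0.21 and 0.16.

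The part of the genome around the start of these genes was read in the RefSeq promoter table (GRCm38.p6, 250 bases before to 50 after the start). The table held 69 of the 78 members and 27025 genes in all. Many nuclear genes for mitochondrial proteins are known to be bound by NRF1, by ETS factors such as GABPA, and by YY1. All motifs were searched on both strands. The NRF1 motif, the letters in capitals in the Mrpl12 stretch shown here with the fifth of them free, was in 13 member windows (18.8%, against 5.19% of all genes), 10 of them of large subunit genes. CCGGAAGT, an ETS motif, was in 12 (17.4%, against 4.31%), and AAGATGGC, for YY1, was also in 12 (17.4%, against 3.19%), of which 5 went on with GGC (7.25%, against 0.755%). AAGATGGC lay after the start in Mrpl35, Mrpl37, Mrpl42, Mrpl49, Mrps7, Mrps18a, Mrps24 and Mrps27. It lay before the start in Mrpl32, Mrpl36, Mrps11 and Mrps12. Of the 5 longer matches, only that of Mrps11 lay before the start. TATAAA was in 5 (7.25%, against 15.7%). The 27025 genes were not limited to coding genes or to those tested here, so these shares are not matched for either. A match describes the letters and is not a binding site.

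The stretches shown here were chosen as examples with the NRF1 motif, the ETS motif or none, and hold no annotated exon. They are written with the motif in capitals, 5′ to 3′ on the gene's strand. Mrpl12 (chr11:120484537-120484612, + strand, bases -100 to -25) has 1 NRF1 motif. Mrpl45 (chr11:97315586-97315715, + strand, -130 to -1) has it at 2 places on the opposite strand. Mrpl43 (chr19:45006443-45006552, - strand, -110 to -1) and Mrps27 (chr13:99344706-99344785, + strand, -80 to -1) have the ETS motif, on the opposite strand in Mrps27. No stretch with the YY1 motif is shown, and that of Mrps27 lies after its start, outside the stretch. The Mrps12 stretch (chr7:28741822-28741991, - strand, -170 to -1) holds none of the motifs and is what separates its start from that of Sars2. Further upstream, at -199 to -192, the Mrps12 window has AAGATGGC on the opposite strand, so Mrps12 is among the members with that motif.
Mrpl12: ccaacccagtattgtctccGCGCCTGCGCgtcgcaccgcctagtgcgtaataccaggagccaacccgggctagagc
Mrpl45: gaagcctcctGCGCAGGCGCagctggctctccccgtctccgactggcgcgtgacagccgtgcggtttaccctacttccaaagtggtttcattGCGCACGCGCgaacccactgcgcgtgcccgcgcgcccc
Mrpl43: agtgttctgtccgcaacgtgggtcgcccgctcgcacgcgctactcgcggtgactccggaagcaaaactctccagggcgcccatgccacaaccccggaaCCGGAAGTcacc
Mrps27: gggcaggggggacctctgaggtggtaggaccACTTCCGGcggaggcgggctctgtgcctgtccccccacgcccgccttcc
Mrps12: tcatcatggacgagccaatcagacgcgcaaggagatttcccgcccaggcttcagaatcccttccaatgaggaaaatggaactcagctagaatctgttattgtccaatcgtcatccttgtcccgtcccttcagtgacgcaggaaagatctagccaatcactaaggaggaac

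Fold changes were also read by motif, with no test. In SSDS-GFP against Control the median log2 fold change was 0.30 for tested members with the NRF1 motif and 0.33 for those without, 0.31 with CCGGAAGT and 0.33 without, and 0.31 with AAGATGGC and 0.33 without. In SSDS-shACOT12 against Control it was 0.33 with the NRF1 motif and 0.31 without. There the 12 members with CCGGAAGT were at 0.18 against 0.34 for those without, and the 12 with AAGATGGC at 0.46 against 0.31. In SSDS-shACOT12 against SSDS-GFP the medians were 0.10 with AAGATGGC and 0.02 without.

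Many members start back to back with another gene. Of the 78, 25 (32.1%) start within 500 bases of a protein-coding gene on the opposite strand, against 8.89% of 21995 coding genes. Mrps12, for the counterpart of the decoding protein S12, starts 172 bases from Sars2, which encodes the mitochondrial seryl-tRNA synthetase. Mrps12 was at 29.0, 34.6 and 33.1 CPM in Control and 42.1, 35.1 and 35.0 with CSDS, wholly above Control, and at 44.0, 30.8 and 41.6 with SSDS-GFP and 47.3, 34.8 and 55.9 with SSDS-shACOT12. Sars2 was at 8.69, 8.11 and 7.20 CPM in Control and 7.33, 6.68 and 9.60 with CSDS, and its log2 fold changes against Control were -0.02 with CSDS and -0.20 with SSDS-GFP. Mrps27, 81 bases from Ptcd2, was at 21.7, 19.3 and 19.0 CPM in Control and 26.5, 25.3 and 30.5 with SSDS-shACOT12, with no overlap.

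The same comparisons were read for the other parts of mitochondrial translation. Of the 5 further ribosomal proteins with other symbols (Dap3, Chchd1, Aurkaip1, Ptcd3 and Gadd45gip1), all 5 had a log2 fold change above 0 with SSDS-GFP against Control (median 0.37). With CSDS, 4 of 5 did so (median 0.05). Aurkaip1 had the largest of these, with 55.2, 68.9 and 65.5 CPM in Control and 99.7, 73.0 and 102 with SSDS-GFP, at 0.53 ± 0.17 (SE, adjusted p = 0.178). Ribosome assembly factors were above 0 in 16 of 24 (median 0.13), with the smallest p for Mrm3, a methyltransferase of the large rRNA, at 0.41 ± 0.15 (adjusted p = 0.233). Translation factors were above 0 in 9 of 15 (median 0.02), among them Mrrf, the ribosome recycling factor, at 0.43 ± 0.13 (adjusted p = 0.172), while Guf1, the counterpart of bacterial LepA, was at -0.57 ± 0.21 (adjusted p = 0.232). Mitochondrial tRNA synthetases were above 0 in 12 of 20 (median 0.04). No gene of these lists, nor of the lists that follow, passed the threshold in any comparison.

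Wars2, the mitochondrial tryptophanyl-tRNA synthetase, was the exception in size: 7.43, 6.68 and 7.79 CPM in Control, 4.89, 3.43 and 5.67 with CSDS, 4.48, 3.35 and 4.63 with SSDS-GFP, and 3.71, 3.31 and 3.72 with SSDS-shACOT12. All other libraries lay below Control, with a log2 fold change of -1.03 ± 0.22 with SSDS-shACOT12 (adjusted p = 0.0531). Genes for expression of the mitochondrial genome were above 0 in 11 of 14 with SSDS-GFP against Control (median 0.07). The 8 regulators of mitochondrial biogenesis had 5 above 0 (median 0.02). Nrf1 itself was at 0.00 ± 0.12, Esrra at 0.30 ± 0.16, Gabpa at -0.19 ± 0.26 and Ppargc1b at -0.84 ± 0.33 (adjusted p = 0.257).

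The rRNAs of the same ribosome, which are encoded in the mitochondrial genome, did not share the order of the proteins. mt-Rnr1, of the small subunit, was at 4804, 3589 and 4747 CPM in Control, 6582, 7425 and 6510 with CSDS, 5414, 8441 and 3007 with SSDS-GFP, and 856, 8591 and 958 with SSDS-shACOT12. mt-Rnr2, of the large subunit, was at 6846, 5788 and 7165 CPM in Control and 3555, 11174 and 4559 with SSDS-shACOT12. In SSDS-shACOT12, libraries 1 and 3 were the lowest of all 12 for both rRNAs, yet the protein genes were higher in them than in library 2. The 13 mitochondrial mRNAs had a median log2 fold change of 0.29 with CSDS, 0.13 with SSDS-GFP and -0.41 with SSDS-shACOT12 against Control, and all 13 were below 0 with SSDS-shACOT12 against SSDS-GFP. How rRNA was depleted or mRNA enriched is not given in the sources used here.

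Other large nuclear-encoded complexes had values of the same direction against Control. Of 76 tested cytoplasmic ribosomal proteins, 69 were above 0 with CSDS and 73 with SSDS-GFP, with medians of 0.19 and 0.41. Of 82 tested nuclear genes of the respiratory chain, 75 and 79 were above 0, with medians of 0.26 and 0.44. Both lists share the members' Control libraries.

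Gene length and GC content moved with the fold changes, over all genes as well as the members. The members are short, with a median length of 2213.5 bases against 3997 over the tested genes. In SSDS-GFP against Control, the median log2 fold change over all genes was 0.20 in the shortest of 8 bins by length and -0.14 in the longest, and across the 77 members Spearman's rho with length was -0.39. With each library's trend with length removed, the medians of SSDS-GFP against Control were 0.20 (large) and 0.24 (small), and the median of the large subunit in CSDS was 0.10. In SSDS-shACOT12 against SSDS-GFP the GC content went with the order of the members: Spearman's rho with exonic GC was 0.69 across the 77. Over all genes the median in that comparison was -0.28 in the lowest and 0.17 in the highest of 8 bins by GC. Libraries of a group differed in this. Centred log2 CPM in the lowest GC bin was -0.49, 0.19 and -0.54 in SSDS-shACOT12 1, 2 and 3. In SSDS-GFP 1, 2 and 3 it was 0.002, 0.32 and -0.22. Mrpl32, with the lowest GC, had the lowest log2 fold change. Mrps34 had the highest, at 0.31 ± 0.22, but its GC of 60.4% was below that of Mrps24 (62.2%) and Mrpl54 (60.8%). With each library's trend with GC removed, Mrpl32 was at -0.35, and the medians of the comparison were 0.01 for both subunits. These correlations are across genes in the same libraries, and genes are not independent replicates.

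**Figure D5:**
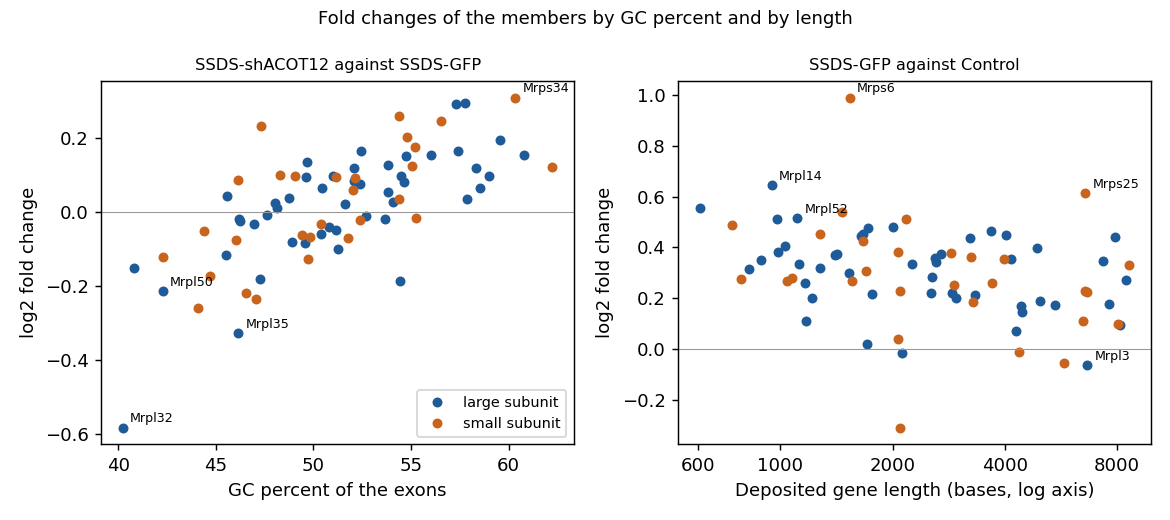
Left, log2 fold change of SSDS-shACOT12 against SSDS-GFP by exonic GC content in percent, and right, log2 fold change of SSDS-GFP against Control by gene length in bases (log axis), with 1 point per tested member. Members with more GC have higher values on the left (Spearman's rho 0.69), and longer members have lower values on the right (Spearman's rho -0.39).

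Overlap with other genes touches part of the list. An exonic base is shared with another gene by 33 of the 78 members, and at least 10% of the exonic bases by 18, among them Mrps34 (77.8%, with Mapk8ip3 on the opposite and Nme3 on the same strand). Over the 60 tested members under that bound, 56 had a log2 fold change above 0 with CSDS and 56 with SSDS-GFP, with medians of 0.17 and 0.32.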

How the data were processed

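The deposited table holds raw counts per gene for 12 libraries. Per the submitters' processing notes, HISAT2 2.0.5, featureCounts 1.5.0-p3, DESeq2 (no version) and mm10 were used, and per the labels' protocols libraries were made from 1 µg of RNA with a NEBNext Ultra kit. The strand setting is not given in the sources used here. The deposited FPKM were scaled by the authors for gene length and library size, and the length is in bases per the file headers. Counts were tested with edgeR 4.0.16 in R 4.3.3: filterByExpr (minimum count 10, minimum total 15; 16915 genes kept), TMM, and a quasi-likelihood fit of group to all 12 libraries, 2-sided, with Benjamini-Hochberg adjustment over all genes. CPM are per TMM-scaled library, and errors are SD over libraries or SE of the model. Centred log2 CPM used a prior count of 2. Exon overlap, exonic GC content and start sites came from GENCODE M21, in which 73 of the 78 members had the same coordinates.

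The genes named were the called members and, with fewer than 4 called per subunit, the 4 of each subunit with the smallest p, fixed role lists, and members at the ends of the level, range and fold change orders. Mrps12, Mrps27 and Wars2 were singled out after their values were seen. The members and lists were chosen with earlier results of these data known. The alternatives were DESeq2 1.42.0 size factors and test, filters, limma 3.58.1 on log2 of FPKM plus 0.1 or 1, library quality weights, the replicate block, length trends, no mitochondrial genes, only the libraries compared, subunits by structure, and each library left out. GC trends, leaving out members that share exons, and SSDS-shACOT12 against Control were added after seeing the data. What libraries of 1 number share is not in the labels. Deviations from the group means of same-numbered SSDS-GFP and SSDS-shACOT12 libraries correlated at 0.196, 0.419 and 0.353, all above 0.1. The main fit did not use pairs, and the replicate number entered only in an alternative run, as a block over all groups. Over all groups 5 of 18 same-number and 11 of 36 other-number pairs lay above 0.1.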

Additional observations from a re-analysis of the deposited data

How the results depend on the processing

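In CSDS against Control, no alternative run called a member. In SSDS-GFP against Control the count of members called was 9 by DESeq2, 3 with no filter and 49 by limma with library quality weights, and leaving out 1 library gave 0 to 1 (Mrps6, without SSDS-shACOT12 1 or without SSDS-shACOT12 2). In SSDS-shACOT12 against SSDS-GFP it was 1 with quality weights and 0 to 1 with 1 library left out (Mrpl32, without SSDS-shACOT12 2). In SSDS-shACOT12 against Control it was 20 by DESeq2, 10 with no filter, 6 with at least 50 counts in 3 libraries, 42 with quality weights and 7 with the GC trend removed. Leaving out 1 library gave 0 to 41 there (41 without SSDS-shACOT12 2, 8 without SSDS-GFP 2, 5 without SSDS-GFP 3 and 4 without SSDS-shACOT12 1). For any difference among the groups it was 11 by DESeq2, 5 with no filter, 52 with quality weights and 0 to 19 with 1 library left out (19 without SSDS-shACOT12 2 and 1 without SSDS-shACOT12 1). With the replicate number as a block, 0 members were called in each comparison, so the block changed no call. The medians of SSDS-shACOT12 against SSDS-GFP were then 0.04 (large) and 0.02 (small).

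With the length trend removed, the large subunit median was 0.10 for CSDS, 0.20 for SSDS-GFP and 0.25 for SSDS-shACOT12 against Control, the small subunit median was 0.18 in the last, and the large minus small difference was -0.036 in SSDS-GFP. With 1 library left out, the small subunit median in CSDS ran from 0.13 to 0.23 and the large minus small difference in SSDS-GFP from -0.017 to 0.092. With quality weights the small subunit median in SSDS-GFP was 0.36 and the large minus small difference in SSDS-shACOT12 against Control 0.11. That difference was -0.0024 with the GC trend removed and 0.15 without members that share exons. In SSDS-shACOT12 against SSDS-GFP the large minus small difference was 0.046 on log2 of FPKM plus 0.1, 0.043 on FPKM plus 1, 0.047 without members that share exons, and -0.014 to 0.043 with 1 library left out. The cause of these shifts was not tested, beyond what each alternative removes. The medians against Control were above 0 for both subunits under each alternative run. With 3 libraries a group, a log2 difference of 0.99 ± 0.22 (Mrps6, SSDS-GFP against Control) was not called at an adjusted p of 0.107.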
